A study of Mus musculus with 6 samples.

Results

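The genes described here build the hair and its mould: the hair keratins, the keratins of the inner root sheath and the keratin-associated proteins. They were taken by symbol from the array annotation: every gene starting with Krtap, and Krt25 to Krt28, Krt31 to Krt36, Krt71 to Krt75 and Krt81 to Krt86. The array carried 58 such genes among 19057, on 74 probes. Of these, 51 were detected on at least 1 array and tested among 11999 detected genes. The other 7, Krt25, Krtap13, Krtap22-2, Krtap3-2, Krtap4-2, Krtap4-6 and Krtap6-1, were detected on no array. The tested genes comprised 6 inner root sheath keratins, 8 hair shaft keratins, the companion layer keratin Krt75 and 36 keratin-associated protein genes.

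Dorsal skin of C57BL6/129Sv mice, shaved at 8 weeks of age, was profiled on 6 Illumina bead arrays. DMBA, a polycyclic aromatic carcinogen, was applied weekly at 10 µg in 100 µl of acetone for 18 to 20 weeks, and control mice received acetone. The groups were 2 skin tumours of DMBA-treated WT mice (Sting +/+), 1 acetone-treated WT skin, 2 DMBA-treated skins of SKO mice (Sting -/-, lacking the innate immune adaptor STING) and 1 acetone-treated SKO skin. Nothing in the labels says whether a sample was pooled. The p-values below reflect only how far these samples lie apart, which may be technical. The comparison of WT tumours with DMBA-treated SKO skin changes genotype and kind of tissue together. WT tumours against WT acetone skin changes treatment and kind of tissue together. A difference between the WT and SKO comparisons thus cannot separate genotype from kind of tissue.

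A growing hair follicle makes its fibre from matrix cells at the base of the bulb. The outer ring of matrix cells forms the inner root sheath, a rigid sleeve that moulds the fibre and is later shed, and the centre forms the hair shaft. Type I and type II keratins pair into filaments, and in the shaft these are embedded in keratin-associated proteins, which are rich in cysteine or in glycine and tyrosine. Both compartments are made during the growth phase, anagen, and are not made in the resting phase, telogen, when the lower follicle has regressed.

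Between 35.5% and 43.3% of 45281 probes were detected per array (detection p under 0.01). Skeletal muscle markers, summed over 10 genes, gave a signal of 812.6 in tumour 1 and 31784.7 in tumour 2, against 165285 in WT acetone skin. In SKO skins the sum was 178889 and 114918 after DMBA, against 252784 after acetone. Of 5 adipocyte markers, 0 were detected in tumour 1, where the follicle genes below were also mostly undetected. Interfollicular epidermis genes had a median log2 difference of -0.12 between WT tumours and WT acetone skin and of 0.14 between DMBA-treated and acetone-treated SKO skin. These medians are the values of Krt10 and Krt14, whose signals were at least 36293.4 on every array. Whether differences are compressed at such bright signals was not tested. Single members lay on both sides in the WT comparison, from -3.55 (SE 0.76) for Flg2 to 1.20 (SE 1.17) for Krt1, and neither was called by limma. In such bulk samples, fewer follicle cells and less RNA per cell cannot be told apart.

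The promoters of 5 genes are shown because they belong to the genes on which the results turn: a pair of inner root sheath keratins, a hair shaft keratin, a highly expressed keratin-associated protein and a member of the Krtap19 family. They come from the RefSeq promoter table (build GRCm38.p6; 250 bases before to 50 after the gene start), which held 51 of the 58 genes. Capitals mark exact matches, on either strand, to any of 3 motifs. The motif TATAAA is the usual form of the box that positions transcription start. The motif AGATAA is bound by factors of the GATA family. The motif CTTTGAA is bound by LEF1 and TCF proteins.
Krt71, chr15:101743048-101743347, minus strand: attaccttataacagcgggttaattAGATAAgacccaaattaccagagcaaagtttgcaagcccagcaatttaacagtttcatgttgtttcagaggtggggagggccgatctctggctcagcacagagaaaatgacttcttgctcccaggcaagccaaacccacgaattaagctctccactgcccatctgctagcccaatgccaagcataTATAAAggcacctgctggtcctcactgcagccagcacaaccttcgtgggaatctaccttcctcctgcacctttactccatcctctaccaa
Krt27, chr11:99351069-99351368, minus strand: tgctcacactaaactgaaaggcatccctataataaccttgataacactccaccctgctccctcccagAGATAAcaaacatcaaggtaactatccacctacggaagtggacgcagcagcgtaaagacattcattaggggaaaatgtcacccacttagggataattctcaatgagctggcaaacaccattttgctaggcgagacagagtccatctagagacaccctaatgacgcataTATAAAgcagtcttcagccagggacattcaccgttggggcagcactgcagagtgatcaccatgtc
Krt34, chr11:100041505-100041804, minus strand: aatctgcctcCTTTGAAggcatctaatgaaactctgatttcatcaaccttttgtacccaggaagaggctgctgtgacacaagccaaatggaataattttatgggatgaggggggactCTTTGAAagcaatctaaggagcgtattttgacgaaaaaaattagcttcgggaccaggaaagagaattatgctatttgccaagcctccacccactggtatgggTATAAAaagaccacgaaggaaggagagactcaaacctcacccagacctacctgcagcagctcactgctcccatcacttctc
Krtap3-1, chr11:99566581-99566880, minus strand: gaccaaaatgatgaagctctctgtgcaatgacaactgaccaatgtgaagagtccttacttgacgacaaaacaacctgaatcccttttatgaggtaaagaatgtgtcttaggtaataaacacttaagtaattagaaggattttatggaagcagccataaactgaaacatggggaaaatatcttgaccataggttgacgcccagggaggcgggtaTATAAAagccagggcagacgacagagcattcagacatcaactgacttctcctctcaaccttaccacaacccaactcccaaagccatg
Krtap19-1, chr16:88869361-88869660, minus strand: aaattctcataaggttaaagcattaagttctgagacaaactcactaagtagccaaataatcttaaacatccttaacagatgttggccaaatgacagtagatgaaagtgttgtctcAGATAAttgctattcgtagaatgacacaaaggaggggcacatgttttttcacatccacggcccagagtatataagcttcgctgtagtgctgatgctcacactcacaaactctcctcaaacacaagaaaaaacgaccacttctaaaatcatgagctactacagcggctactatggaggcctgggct
TATAAA occurred in 43 of the 51 promoters (84.3%), against 14.2% of all 27025 promoters in the table. AGATAA occurred in 4 of 7 inner root sheath keratin promoters and in 0 of 5 hair shaft keratin promoters, against 11.4% of all promoters. It also occurred in 9 of 38 keratin-associated protein promoters (23.7%). CTTTGAA occurred in 1 of the 7 and in 3 of the 5, against 5.27%, and in 7 of the 38 (18.4%). The keratin sets are small, and no difference between sets was tested. In the 51 promoters, no match overlapped a match to a different motif. GATA3 is required for the inner root sheath lineage in mice, and LEF1 acts in the hair matrix. These matches are letters in a window and were not tested as binding sites.

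Inner root sheath keratins had lower signals in both WT tumours than in WT acetone skin, and higher signals in both DMBA-treated SKO skins than in SKO acetone skin. Krt71, a type II keratin of all inner root sheath layers, had a signal of 72.2 (not detected) and 7416.3 in the WT tumours, against 26314.1 in WT acetone skin. In SKO mice it was 28463.8 and 37374.2 after DMBA, against 943.7 after acetone. All 3 of these skins, WT acetone and the pair of SKO DMBA skins, lay above every tumour and above SKO acetone skin.

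Krt27, a type I keratin of the same layers, followed the same order. Its signal was 96.7 and 10975.2 in the WT tumours, against 29000.4 in WT acetone skin. After DMBA it was 32700.4 and 42801.2 in SKO skin, against 1331.1 in SKO acetone skin. Tumour 1 barely passed the detection limit, and the tumours did not overlap the SKO DMBA skins. Krt28, another type I keratin of the inner root sheath, reached 68.4 (not detected) and 1030.0 in WT tumours, against 4267.6 in WT acetone skin. SKO skins gave 5309.1 and 5884.6 after DMBA, against 442.7 after acetone, and SKO acetone skin lay between the tumours.

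The inner root sheath cuticle has keratins of its own. Krt73, a type II keratin of that cuticle, had 74.6 (not detected) and 2141.3 in WT tumours, against 8880.8 in WT acetone skin, and 11975.8 and 10110.2 in SKO DMBA skin, against 753.8 in SKO acetone skin. Krt26, its type I neighbour in the cuticle, had 73.9 (not detected) and 445.4 in WT tumours, against 1780.3 in WT acetone skin, and 2295.7 and 1322.6 in SKO DMBA skin, against 94.2 (not detected) in SKO acetone skin. Krt72 had 76.1 (not detected) and 435.2 in WT tumours, against 1425.2 in WT acetone skin, and 2657.0 and 1818.5 in SKO DMBA skin, against 86.6 (not detected) in SKO acetone skin. Krt73 was detected in SKO acetone skin, and Krt26 and Krt72 were not.

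**Figure D1:**
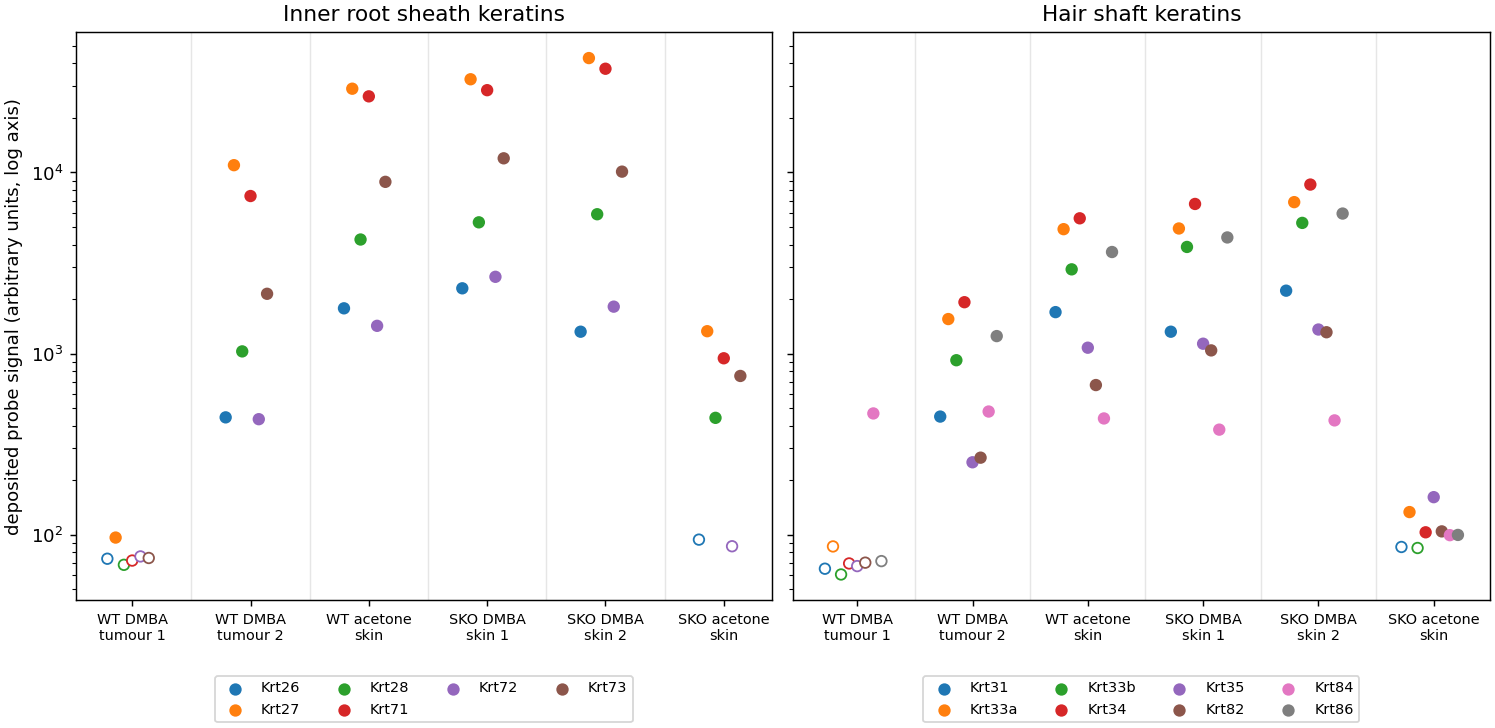
Deposited probe signal (log axis, arbitrary units) of 6 inner root sheath keratins (left) and 8 hair shaft keratins (right) on the 6 arrays, 1 point per gene and array. Open points were not detected. Tumour 1 and SKO acetone skin lie lowest for every gene plotted except Krt84, for which SKO acetone skin lies lowest and tumour 1 does not.

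All hair shaft keratins except Krt84 had lower signals in both WT tumours and in SKO acetone skin than in the other 3 skins. Krt34, a type I cortex keratin, had a signal of 69.6 (not detected) and 1924.2 in WT tumours, against 5587.7 in WT acetone skin. In SKO mice it reached 6705.4 and 8579.1 after DMBA, against 103.4 after acetone. SKO acetone skin stood barely above the detection limit, and the other SKO skins lay above every WT sample. Krt86, a type II partner in the cortex, had 71.7 (not detected) and 1251.0 in WT tumours, against 3640.9 in WT acetone skin, and 4381.1 and 5935.6 in SKO DMBA skin, against 100.0 in SKO acetone skin. Krt33a and Krt33b, near-identical type I cortex keratins whose probes may share targets, showed the pattern too. Krt33a had 86.4 (not detected) and 1553.2 in WT tumours, against 4867.7 in WT acetone skin, and 4910.3 and 6862.2 in SKO DMBA skin, against 133.7 in SKO acetone skin. Krt33b had 60.5 (not detected) and 920.6 in WT tumours, against 2921.2 in WT acetone skin, and 3883.1 and 5270.9 in SKO DMBA skin, against 84.7 (not detected) in SKO acetone skin. For both, tumours and SKO acetone skin lay below the other 3 skins.

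Krt31, a further cortex keratin, had 65.1 (not detected) and 449.9 in WT tumours, against 1696.3 in WT acetone skin, and 1322.6 and 2227.9 in SKO DMBA skin, against 85.8 (not detected) in SKO acetone skin. Its SKO DMBA skins lay on either side of WT acetone skin.

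Krt35, which is switched on early in the matrix and cuticle, was detected in SKO acetone skin. It had 67.3 (not detected) and 251.7 in WT tumours, against 1079.3 in WT acetone skin, and 1135.6 and 1359.9 in SKO DMBA skin, against 161.6 in SKO acetone skin. Krt82, a cuticle keratin, had 70.3 (not detected) and 266.9 in WT tumours, against 671.5 in WT acetone skin, and 1043.1 and 1313.7 in SKO DMBA skin, against 104.6 in SKO acetone skin.

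A single shaft keratin, Krt84, did not follow the others. It is also a keratin of the tongue, and had signals of 468.2 and 479.7 in WT tumours, against 439.3 in WT acetone skin. In SKO mice it had 381.1 and 428.6 after DMBA, against 99.7 after acetone. It was the only 1 of the 8 detected in tumour 1, and it was low in SKO acetone skin alone.

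The companion layer keratin Krt75, which lies between the sheaths, gave 73.4 (not detected) and 123.9 in WT tumours, against 527.0 in WT acetone skin, and 195.7 and 495.7 in SKO DMBA skin, against 415.9 in SKO acetone skin. The SKO groups overlapped. Its second probe disagreed for SKO acetone skin, where it gave 112.9, against 206.2 in WT acetone skin, so the direction for Krt75 in SKO skin is uncertain.

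Keratin-associated proteins crosslink the shaft filaments. Of their 36 tested genes, 0 were detected in tumour 1 and 1 in SKO acetone skin. Over all 45281 probes, with no filter for detection, 35.5% were detected in tumour 1 and 40.9% in SKO acetone skin. The share over all tested genes was not computed. Krtap7-1, a glycine- and tyrosine-rich protein of the cortex, had 64.9 (not detected) and 2977.2 in WT tumours, against 8602.6 in WT acetone skin, and 11265.3 and 12661.9 in SKO DMBA skin, against 97.3 (not detected) in SKO acetone skin. Krtap3-1, a high-sulfur family member, had 75.9 (not detected) and 1405.9 in WT tumours, against 3907.7 in WT acetone skin, and 6875.1 and 8165.8 in SKO DMBA skin, against 118.7 in SKO acetone skin. These 2 genes had the highest mean signals among the keratin-associated proteins, and for both the tumours and the SKO DMBA skins did not overlap.

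Krtap6-2, of the glycine- and tyrosine-rich kind, had 63.6 (not detected) and 1001.0 in WT tumours, against 3176.8 in WT acetone skin, and 3451.5 and 3978.7 in SKO DMBA skin, against 78.9 (not detected) in SKO acetone skin. Krtap26-1, a high-sulfur gene, had 66.9 (not detected) and 713.1 in WT tumours, against 1626.2 in WT acetone skin, and 4054.2 and 3377.3 in SKO DMBA skin, against 77.1 (not detected) in SKO acetone skin. For Krtap26-1 both SKO DMBA skins exceeded WT acetone skin by more than 2-fold, and for Krtap6-2 they lay close to it. Krtap2-4, another high-sulfur gene, had 56.1 (not detected) and 1293.1 in WT tumours, against 3173.1 in WT acetone skin, and 4698.7 and 5024.6 in SKO DMBA skin, against 92.0 (not detected) in SKO acetone skin.

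Across all arrays, the numbers of detected genes showed the same division. The 51 genes were kept for detection on at least 1 array, and the matching share of all 11999 tested genes was not computed. Over all 45281 probes, with no such filter, 35.5% were detected in tumour 1, 40.9% in SKO acetone skin and 42.9% in WT acetone skin. Tumours 1 and 2 detected 2 and 46 of the 51 genes, against 51 in WT acetone skin. DMBA-treated SKO skins 1 and 2 detected 48 and 51, against 12 in SKO acetone skin. Of the 36 keratin-associated protein genes, SKO acetone skin detected 1, tumour 1 detected 0 and tumour 2 detected 31. Of the 6 inner root sheath keratins, SKO acetone skin detected 4 and tumour 1 detected 1. Of the 8 shaft keratins, SKO acetone skin detected 6, with signals of 99.7 to 161.6.

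In WT tumours against WT acetone skin, 50 of 51 genes had a lower fitted level, the exception being Krt84, whose log2 difference was 0.59 (SE 0.30). The median log2 difference of the 51 genes was -3.71, against -0.011 for all genes tested. It was -1.42 without tumour 1, -5.49 without tumour 2, -2.60 without background correction and -2.73 in the authors' processed matrix. Both tumours lay below WT acetone skin for 50 of 51 genes, against 40.9% of all genes. The limma fit called 0 of the 51 at adjusted p under 0.05, and 0% of all genes. At an unadjusted p under 0.05 it gave 7 lower genes, among 12.5% of all genes, so the share of 7 in 51 was close to the background. Those 7 genes were Krt75, Krt35, Krtap16-3, Krtap19-4, Krtap31-1, Krtap31-2 and Krtap5-4. The largest differences among keratin-associated protein genes were -5.10 (SE 3.00) for Krtap7-1, -4.84 (SE 2.27) for Krtap19-1 and -4.36 (SE 2.35) for Krtap6-2. None of these passed the test, and tumour 1 did not detect them, so the differences are not exact. None of the 36 was higher in tumours.

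The spread between the tumours was large, and the values differed by tumour. In tumour 2 alone, inner root sheath keratins had log2 differences of -1.50 to -2.00 against WT acetone skin (median -1.92), and shaft keratins without Krt84 had -1.24 to -2.09 (median -1.49). Keratin-associated protein genes had a median of -1.19 there. In tumour 1 the inner root sheath keratins had log2 differences of -5.53 to -10.3, and the medians were -6.74 for shaft keratins without Krt84 and -4.85 for keratin-associated protein genes, computed on signals that were mostly undetected, so they are fitted values and not exact differences. With tumour 1 left out, 6 genes passed at adjusted p under 0.05, among 2.47% of all genes. With tumour 2 left out, 44 passed, among 14.4%. Either way the comparison is 1 array against 1, all spread comes from the SKO DMBA skins, and the lone arrays are assumed to vary like them. Muscle markers moved with the tumours in the same direction, and their part in the result was not tested.

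In DMBA-treated against acetone-treated SKO skin, 50 of 51 genes had a higher fitted level, and Krt75 had a log2 difference of -0.60 (SE 1.02). The control here is 1 array, which lay below WT acetone skin for all 51 genes (median log2 difference -4.82). Treatment, animal and stage of the hair cycle therefore cannot be told apart in this comparison. Both SKO DMBA skins lay above SKO acetone skin for 49 of 51, against 38.6% of all genes. The median log2 difference was 5.51, against 5.89e-05 for all genes, and was 3.84 without background correction and 4.00 in the authors' processed matrix. Limma again called 0 of the 51 genes, and 0% of all, at adjusted p under 0.05. At an unadjusted p under 0.05, 41 were higher, among 3.98% of all genes. They included 7 of 8 shaft keratins, 32 of 36 keratin-associated protein genes and 2 of 6 inner root sheath keratins, Krt26 and Krt72. The SE of this comparison also holds the spread between the tumours, and was 3.44 for Krt71 and 3.08 for Krt27. These counts thus depend on the tumours as well. The lowest adjusted p from limma was 0.215 for Krt84, with a log2 difference of 3.07 (SE 0.30). The 3 largest fitted log2 differences among keratin-associated protein genes were 8.45 (SE 3.00) for Krtap7-1, 7.37 (SE 2.11) for Krtap26-1 and 7.32 (SE 2.35) for Krtap6-2. None of the 3 was detected in SKO acetone skin, so these differences have no exact size or order.

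Because SKO acetone skin did not detect many of these genes, some folds are bounds, computed on background-corrected values with the undetected signal raised to the lowest detected one. The deposited signals still hold their background, and their ratios are given beside the bounds. Krtap7-1 was at least 330-fold higher in SKO DMBA skin than in SKO acetone skin on that scale, with a signal ratio of 123. Krtap2-4 was at least 126-fold higher (signal ratio 52.8) and Krt33b at least 118-fold higher (53.4). Krtap4-7 was at least 113-fold, Krtap26-1 at least 94.5-fold and Krtap6-2 at least 94.1-fold higher, with signal ratios of 45.2, 48.0 and 47.0. Krt26 was at least 42.8-fold higher (18.5). The size of each bound thus depended on the background correction. With tumour 1 left out, the SKO comparison called 42 genes higher at adjusted p under 0.05, among 1.19% of all genes, and these included all 8 shaft keratins and all 6 inner root sheath keratins. Again only the SKO DMBA skins had a replicate in that fit. Leaving out tumour 2 instead leaves the same spread, and the median log2 difference was 5.51 either way. With either SKO DMBA skin left out, limma called 0.

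SKO acetone skin itself stood apart from WT acetone skin. All 51 genes were lower, 47 of them by more than 2-fold, against 3.49% of all genes. With signals not detected in SKO acetone skin raised to the lowest detected one, 45 were lower by more than 2-fold, against 2.96% of all genes. The other 2, Krtap12-1 and Krtap5-4, were then at least 1.54-fold and at least 1.25-fold lower. The median log2 difference was -4.82, against 0.020 for all genes. No test was made of this pair, which has 1 array in each group. Genotype, animal and stage of the hair cycle cannot be told apart. Inner root sheath keratins had log2 differences of -3.46 (Krt28) to -5.58 (Krt26, not detected in SKO acetone skin). The shaft keratins had differences of -3.12 (Krt84) to -7.01 (Krt34), so the classes overlapped. On background-corrected values, Krt33b was at least 70.0-fold lower in SKO acetone skin, with a ratio of WT acetone signal over SKO acetone signal of 34.5. Krt31 was at least 39.5-fold lower (signal ratio 19.8) and Krtap7-1 at least 226-fold lower (88.4). The 4 genes not lower by over 2-fold were Krt75 (-0.28), Krtap31-1 (-0.99), Krtap24-1 (-0.91) and Krtap5-5 (-0.29), the last 3 not detected in SKO acetone skin.

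**Figure D2:**
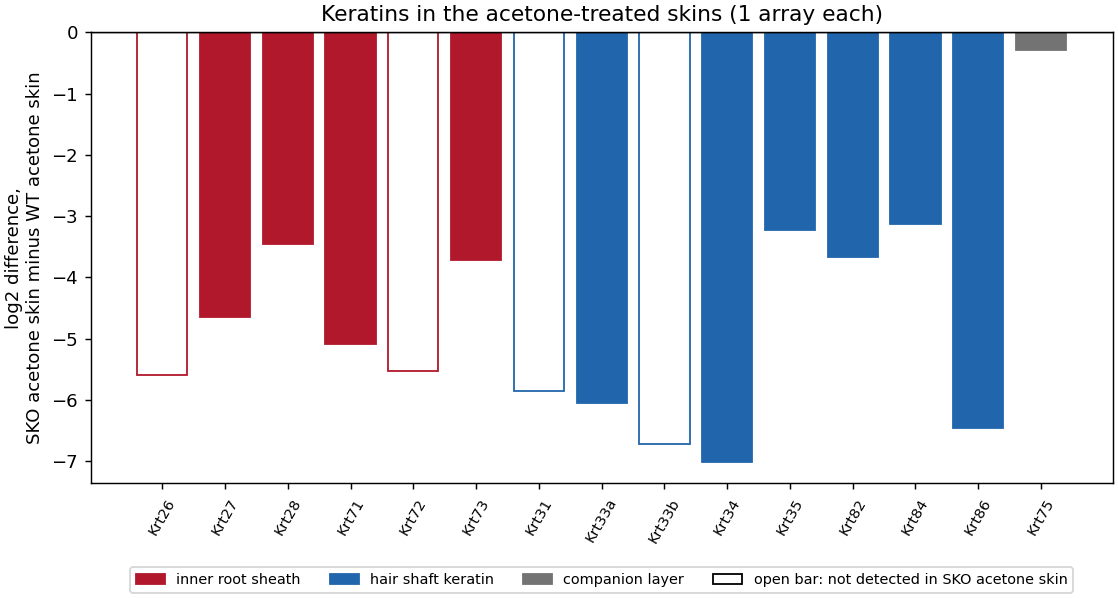
Log2 difference of SKO acetone skin minus WT acetone skin for the 15 keratins tested, 1 bar per gene (red inner root sheath, blue hair shaft, grey companion layer). Open bars mark genes not detected in SKO acetone skin. Krt34 had the largest difference (-7.01) and Krt75 the smallest (-0.28).

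Setting WT tumours against DMBA-treated SKO skin, 50 of 51 genes had a lower fitted level in tumours, with a median log2 difference of -4.10, against -0.023 for all genes. That median was -1.96 without tumour 1 and -5.90 without tumour 2. Both tumours lay below both SKO DMBA skins for 46 of 51, against 35.8% of all genes. Limma called 0 of the 51, and 0% of all, at adjusted p under 0.05. At an unadjusted p under 0.05 there were 31 lower genes, among 17.1% of all genes. The largest differences among keratin-associated protein genes were -5.64 (SE 2.45) for Krtap7-1, -5.28 (SE 1.95) for Krtap3-1 and -4.94 (SE 2.07) for Krtap2-4, none of them detected in tumour 1. Leaving out tumour 1 gave 38 called genes, among 4.57% of all, and leaving out tumour 2 gave 45, among 18.2%.

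For the difference between the responses, WT tumour minus WT acetone skin against SKO DMBA skin minus SKO acetone skin, all 51 genes were negative, against 51.3% of all genes. Their median was -8.79, against -0.022 for all genes, and it was -6.89 without tumour 1 and -5.95 without background correction. Limma called 0 of the 51, and 0% of all, at adjusted p under 0.05. At an unadjusted p under 0.05, 44 of the 51 were lower, among 4.54% of all genes. The count was 39 at adjusted p under 0.05 without tumour 1 (among 0.767% of all genes) and 46 without tumour 2 (among 7.11%).

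To set the inner root sheath against the hair shaft, each gene was centred on its own mean over the 6 arrays and the median of each class was taken. The inner root sheath median was -5.89 and 0.29 in tumours 1 and 2, against 2.24 in WT acetone skin, and 2.68 and 2.58 in SKO DMBA skins 1 and 2, against -2.25 in SKO acetone skin. The shaft keratin median was -4.19 and 0.77 in the tumours, against 2.28 in WT acetone skin, and 2.13 and 2.88 in SKO DMBA skin, against -3.66 in SKO acetone skin. Both medians were below 0 in tumour 1 and SKO acetone skin, where many of these signals were not detected, and above 0 on the other arrays. The difference, inner root sheath minus shaft, was -1.70 and -0.48 in the tumours, against -0.047 in WT acetone skin, and 0.55 and -0.30 in SKO DMBA skin, against 1.41 in SKO acetone skin. In tumour 1 only 1 of 6 inner root sheath and 1 of 8 shaft keratins were detected, so -1.70 is not an exact contrast of the layers. The pooled SD of the difference within pairs of the same group was 0.742. SKO acetone skin had the highest of these 6 values, but it was 0.44 without background correction and 0.51 in the authors' processed matrix, and the cause was not tested.

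**Figure D3:**
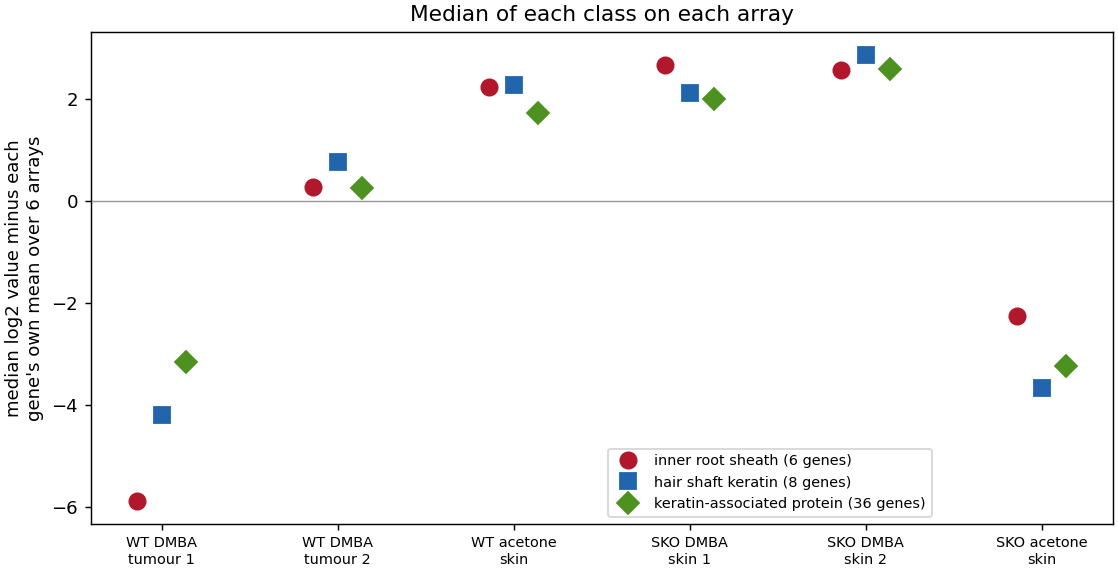
Median over each class of log2 values centred on each gene's mean over the 6 arrays (6 inner root sheath keratins, 8 hair shaft keratins and 36 keratin-associated protein genes). All 3 classes are below 0 in tumour 1 and SKO acetone skin and above 0 on the other arrays.

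Other genes of the hair layers gave smaller differences. The list holds 22 genes, such as Tchhl1, a trichohyalin relative, and Padi3, an enzyme that modifies trichohyalin, and 16 were tested. Limma called 0 of 16 in either direction in each comparison. The median log2 difference was -1.07 for WT tumours over WT acetone skin and 1.60 for SKO DMBA skin over SKO acetone skin. In SKO acetone skin 9 of 16 were over 2-fold lower than in WT acetone skin, against 3.49% of all genes. Tchhl1 was at -4.92, Prr9 at -4.60 and S100a3, a cuticle protein, at -4.51. Padi1 and Padi3 were among the 9 but were not detected in SKO acetone skin, so their differences have no exact size. Gata3, a regulator of the inner root sheath, was at 0.51 in that comparison, and Hoxc13, a regulator of hair keratins, at -1.37.

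Stem cell and outer root sheath markers were measured as a further follicle compartment, with Lhx2 on both this list and the hair layer list. Of 9 tested, 0 were over 2-fold lower in SKO acetone skin than in WT acetone skin, against 3.49% of all genes, so the count was close to the background. Their median log2 difference was 0.095. Krt15, a bulge keratin, had a signal of 19328.5 in SKO acetone skin, against 16299.9 in WT acetone skin. Sox9, a follicle stem cell regulator, had 7464.7 in SKO acetone skin, against 7071.0 in WT acetone skin. Fgf18, a factor of the resting follicle, had 381.8 in SKO acetone skin, against 191.8 in WT acetone skin. In WT tumours, Krt15 had 247.7 and 2613.6, against the 16299.9 of WT acetone skin. Melanocyte markers, summed over 6 genes, gave 627.7 and 5366.5 in WT tumours, against 13246.9 in WT acetone skin, and 5183.7 and 8609.0 in SKO DMBA skin, against 3190.1 in SKO acetone skin.

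**Figure D4:**
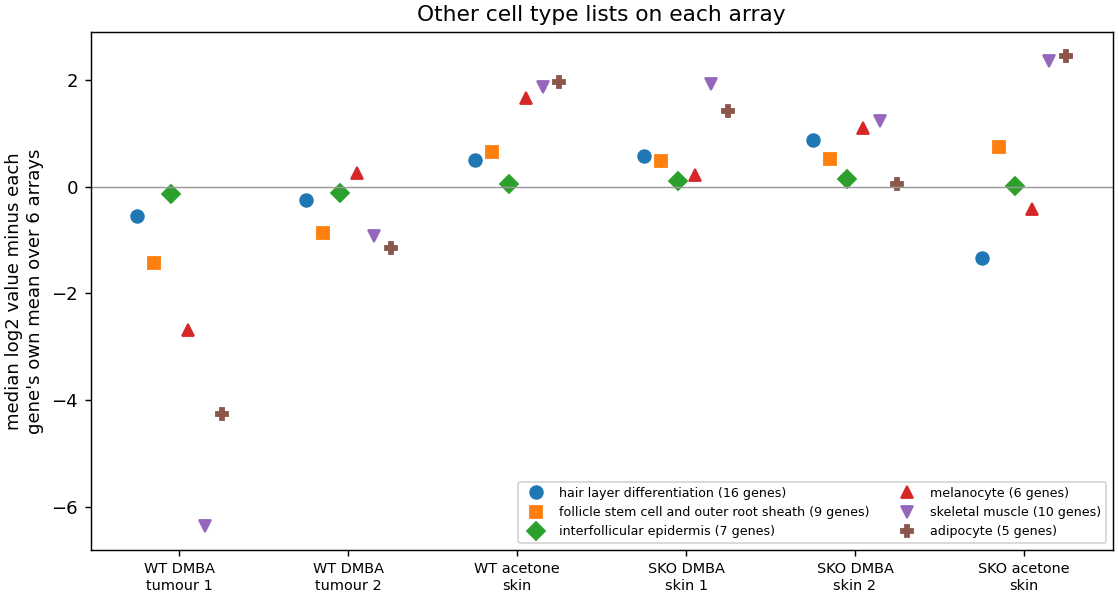
Median of log2 values centred on each gene's mean over the 6 arrays for other cell type lists (16 hair layer differentiation, 9 follicle stem cell and outer root sheath, 7 interfollicular epidermis, 6 melanocyte, 10 skeletal muscle and 5 adipocyte genes). In SKO acetone skin the hair layer differentiation median is below 0 (-1.33) while the stem cell median is above 0 (0.76). Lhx2 belongs to both of these lists.

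Family types of keratin-associated proteins were set against WT acetone skin. The types follow textbook families and were assigned after values were seen. All 10 ultra-high-sulfur genes were higher in both SKO DMBA skins than in WT acetone skin, with medians of 0.99 and 1.31 in SKO DMBA skins 1 and 2. Of 11 high-sulfur genes, 10 were higher in both (medians 0.87 and 1.24). Of 11 high glycine-tyrosine genes, 4 were higher in both (medians -0.67 and -0.18). Among these 11, 6 were Krtap19 genes, all lower in SKO DMBA skin 1 than in WT acetone skin. The other 5 had medians of 0.12 and 0.45, with 4 of 5 higher on each array. Across all 51 genes, 36 were higher in both, against 33.8% of all genes. WT acetone skin is 1 array, so no test was made.

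The Krtap19 family, chosen after its values were seen, was uneven between the SKO DMBA skins. Krtap19-1 had signals of 89.4 (not detected) and 886.1 in SKO DMBA skins 1 and 2, against 1684.7 in WT acetone skin, and its second probe gave 102.1 and 606.1 in SKO DMBA skins, against 1086.5 in WT acetone skin. Krtap19-2 had 71.5 (not detected) and 408.4 in SKO DMBA skins, against 618.8 in WT acetone skin. Krtap19-9b had 1106.9 and 1099.6 in SKO DMBA skins, against 1704.4 in WT acetone skin, so not all members differed. Over 6 family members, the log2 difference of SKO DMBA skin 2 minus SKO DMBA skin 1 ran from 0.11 to 4.69, with a median of 2.43. Shaft keratins were all higher in SKO DMBA skin 2 (0.30 to 0.92), whereas inner root sheath keratins were split at 3 higher and 3 lower. Genes over 2-fold higher in SKO DMBA skin 2 numbered 9 of 51, among 1.64% of all genes.

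**Figure D5:**
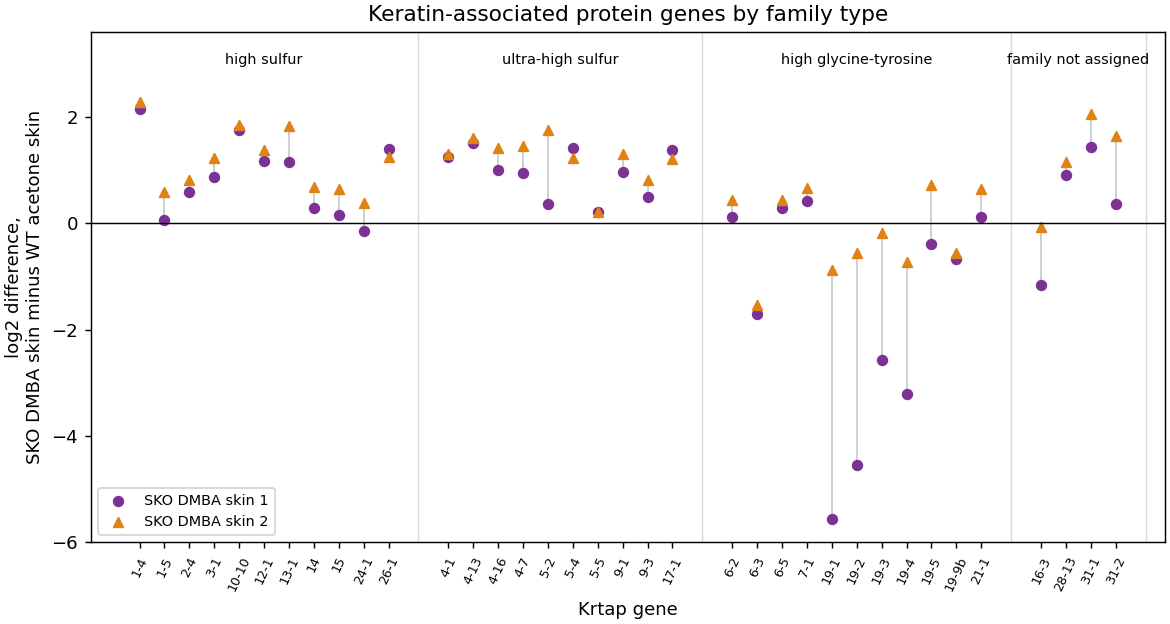
Log2 difference of each SKO DMBA skin minus WT acetone skin for 36 keratin-associated protein genes, grouped by family type (circles SKO DMBA skin 1, triangles SKO DMBA skin 2, 1 gene per column). All 10 ultra-high-sulfur genes lie above 0 on both arrays, and Krtap19-1 and Krtap19-2 lie far below 0 on SKO DMBA skin 1.

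By chromosome, RefSeq placed 21 of the 51 genes on chromosome 11, 17 on 16, 7 on 15, 3 on 7, 2 on 10 and 1 on 1. The type I keratins and 13 keratin-associated protein genes lay on 11, the type II keratins on 15, and all Krtap19 genes on 16. Keratin-associated proteins are near-identical within families, so a probe may read several members and values of single members are uncertain.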

How the data were processed

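Total RNA of 6 dorsal skin samples was hybridised to Illumina bead arrays with biotin-labelled cRNA, per the labels' protocols. The authors deposited a non-normalized table of intensity per probe with a detection p-value, and a processed matrix of log2 values. The deposited detection values rose with signal (Spearman at least 0.975), so the detection p was taken as 1 minus it. The deposited log2 matrix equalled quantile-normalized log2 intensities minus each probe's median, to a mean absolute difference of at most 0.00125; its making is described in no source read here.

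Intensities were normalized with neqc (limma 3.58.1, R 4.3.3, offset 16). A gene was the probe with the highest mean signal, kept where detected on at least 1 array. Of the probes, 34885 had 1 gene symbol, 18 several and 10378 none. Group means of 4 groups were fitted to 6 arrays in limma (2 residual degrees of freedom), with Benjamini-Hochberg adjustment over 11999 genes; the single acetone arrays are assumed to vary like the other groups. The fit was tested on simulated data with far less noise than these classes showed within pairs (pooled SD of class medians 1.73 to 3.09). That test therefore does not measure how well the fit performs here. Where a group was not detected, "at least" folds, taken on normalized and background-corrected values, set its level to the higher of its own value and the lowest detected value of that array. Ratios of deposited signals keep the background. Signals in the report are deposited intensities; their number limits precision.

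Members, lists and family types were chosen with earlier results of these data known. The genes named were all detected keratins, the 2 brightest Krtap genes and the 3 largest differences in each direction per comparison; others named were chosen after values were seen. Composition classes of Krtap proteins were planned but no protein table was used here, so all Krtap genes form 1 class for the naming rule. Alternatives covered background correction, scaling, detection filter, probe choice, the authors' matrix, raised undetected signals, each replicate left out and, added after seeing the data, shaft keratins without Krt84.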

Additional observations from a re-analysis of the deposited data

Results flagged for a closer look

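The medians of all 3 classes moved in opposite directions in the WT and SKO comparisons. Both WT tumours lay below WT acetone skin, and both SKO DMBA skins lay above SKO acetone skin. The difference between these responses, WT minus SKO, was -9.912 for inner root sheath keratins, -10.16 for hair shaft keratins and -8.711 for keratin-associated protein genes, on the log2 scale. These differences of class medians were not tested, and genotype and kind of tissue change together in them. They rest on the low values of tumour 1 and of the single SKO acetone skin, many of which were not detected.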

How the results depend on the processing

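The number of genes called at adjusted p under 0.05 depended on which array was left out. Leaving out 1 array at a time gave 0 to 44 genes for WT tumours over WT acetone skin, 0 to 42 for SKO DMBA over SKO acetone skin, 0 to 45 for WT tumours over SKO DMBA skin and 0 to 46 for the difference between responses; each count above 0 came from leaving out a tumour, and the fit on all arrays called 0. Inner root sheath minus shaft in SKO acetone skin was 1.41, but 0.44 without background correction and 0.51 in the authors' matrix. Over genes detected on all 6 arrays, only Krt27 and Krt84 remained: the same difference was then -7.60 in tumour 1, against 2.08 in WT acetone skin, and 2.37 and 2.48 in SKO DMBA skins, against 0.56 in SKO acetone skin, and 2 of 2 genes were over 2-fold lower in SKO acetone skin. Without background correction and in the authors' matrix, the median log2 difference of the 51 genes was -2.60 and -2.73 for WT tumours over WT acetone skin, 3.84 and 4.00 for SKO DMBA over SKO acetone skin, -3.00 and -3.16 for WT tumours over SKO DMBA skin, and -5.95 and -6.37 for the difference between responses. Equal-median scaling moved the median of all genes to -0.20 in WT tumours over WT acetone skin, with the 51 genes at -3.73. The only reversed value was Krt75 in SKO DMBA over SKO acetone skin, 0.29 without SKO DMBA skin 1 and -1.50 without SKO DMBA skin 2. Of the other values for single keratins, 449 kept their call and direction and 98 became called. Excluding Krt84 left each class difference within the spread. No paired analysis was possible because the labels give no replicate numbers that pair the samples. Dim signals limit the folds against tumour 1 or SKO acetone skin for genes not or barely detected there, which were most of the 51.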

Other observations

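Psors1c2 had signals of 777.2 and 782.5 in WT tumours, against 781.5 in WT acetone skin, and 1270.0 and 1439.6 in SKO DMBA skin, against 152.7 in SKO acetone skin. Like Krt84, it was low in SKO acetone skin alone. Ovol1, an epithelial differentiation regulator, had 2141.4 and 873.5 in WT tumours, against 649.0 in WT acetone skin, and 649.3 and 836.4 in SKO DMBA skin, against 308.1 in SKO acetone skin. Both genes were chosen after their values were seen.

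Krtap6-3, a glycine- and tyrosine-rich family member, had signals of 590.0 and 613.7 in SKO DMBA skin, against 1743.5 in WT acetone skin, whereas its relative Krtap6-2 had 3451.5 and 3978.7, against 3176.8. The relation of Krtap6-3 to the other members was not tested.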
